A study of Mus musculus with 15 samples.

Results

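Natural killer cell receptors were followed in transplanted mouse hearts and livers. The 8 genes were Klrk1, Klrd1, Klrc1, Klre1, Klrg1, Klrb1c, Ncr1 and Cd244. They were taken by gene name with no cutoff on a measured value, though earlier results of these data were known when they were chosen. All of their probes were taken, 11 probes out of 41174 on the array, or 8 genes out of 32301 by every name in the files. A single probe read 6 of the genes, Klrb1c had 2 probes and Cd244 had 3.

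Natural killer cells are lymphocytes that kill infected, transformed or foreign cells without prior sensitization, and their response is set by the balance of activating and inhibitory receptors. Klrk1 (NKG2D) and Ncr1 (NKp46) are activating, Klrd1 (CD94) pairs with Klrc1 (NKG2A) to form an inhibitory receptor, and Cd244 (2B4) binds Cd48 on neighbouring cells. Several of these receptors, among them Klrk1, Klrd1, Klrc1, Klrg1 and Cd244, are also carried by activated CD8 T cells, so that in whole grafts they do not mark natural killer cells alone.

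Gene expression was measured in whole tissue of male mice on 15 single-colour Agilent arrays, 3 for each of 5 groups. Cardiac allografts came from B10 (C57BL/10) donors placed in the abdomen of CBA recipients and were taken at post-operative day 5 (POD5). Hepatic allografts came from B10.BR donors placed orthotopically in B10.D2 recipients and were taken at POD5 or POD8. The controls were 3 hearts and 3 livers, which the labels call normal tissue and the study's legends call syngeneic grafts, with no strain given; the age of the mice was not given either. The organs therefore differed in donor and recipient strain as well, which cannot be told apart from organ, and they shared only 1 of the 6 slides, which held the cardiac allografts and 1 POD5 hepatic allograft. The methods speak of separate mice for the PCR assays, while the labels do not say whether the 3 arrays of a group were separate animals, so the P-values measure the spread between these samples, which may be technical.

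The deposited values were background-subtracted spot intensities (the scanner software's processed signal), and their log2 after quantile normalization over the 15 arrays is the scale used throughout, so that 1 unit is a doubling. A gene was read from its brightest probe. The arrays differed in brightness, and the 75th percentile of the raw processed signal was 395.1 to 711.6 on cardiac allografts, 1025 to 1251 on cardiac controls, 338.9 to 477.7 and 384.6 to 454.1 on hepatic allografts at POD5 and POD8, and 92.1 to 226.2 on hepatic controls. The part of this difference in the results was not tested. Tissue markers followed the labels, with the mean over 4 hepatocyte genes at 16.0 to 16.37 in livers and 1.84 to 2.41 in hearts, and that over 4 cardiomyocyte genes at 16.09 to 17.35 in hearts and 3.31 to 4.83 in livers.

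In the heart, all 8 receptor genes were higher in the allografts, and for each of them every allograft lay above every control. The log2 differences ran from 1.29 for Klrb1c to 4.68 for Klrc1, with a median of 2.71. Limma with Benjamini-Hochberg adjustment over all probes called 8 of 8 (adjusted P from 0.00089 to 0.0075), where 15.5% of all genes tested were called higher and the median difference of all genes was 0.03. Allografts lay wholly above controls for 30% of all genes. In whole tissue, more cells of a type and more RNA per cell cannot be told apart.

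Klrc1, the inhibitory partner of Klrd1, stood at 7.68, 7.14 and 8.04 in the cardiac allografts and at 2.68, 2.81 and 3.32 in the controls. The groups were far apart, and the difference of 4.68 ± 0.29 (SE) was a 25.7-fold change. Klrk1, which recognizes stress-induced ligands of the Rae-1 and H60 families, stood at 7.77, 7.77 and 8.11 in allografts and at 4.15, 3.13 and 3.86 in controls. Its 3 allografts were nearly alike, and the difference was 4.17 ± 0.29 (18-fold). Klrd1, the shared chain of the CD94 receptors, stood at 11.1, 10.62 and 11.16 against 8.36, 8.05 and 8.68. The controls thus already gave a clear Klrd1 signal, and the difference was 2.60 ± 0.23 (6.07-fold).

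Klre1, a lectin-like receptor that pairs with the Klri chains, stood at 7.44, 7.30 and 6.62 in cardiac allografts and at 4.41, 3.98 and 4.15 in controls. The difference was 2.94 ± 0.25, and the third allograft was the lowest. Klrg1, an inhibitory receptor for cadherins, stood at 8.08, 7.81 and 7.18 against 5.25, 4.62 and 5.11, a difference of 2.70 ± 0.29. The third allograft was again the lowest, and still lay well above all controls. Ncr1 stood at 5.72, 6.90 and 6.14 against 4.16, 3.25 and 3.20, a difference of 2.72 ± 0.41, the largest error among the cardiac values.

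The smallest cardiac changes were those of Cd244 and Klrb1c. Cd244 stood at 9.53, 9.56 and 9.63 in allografts and at 8.16, 7.74 and 8.41 in controls, a difference of 1.47 ± 0.19 (2.78-fold). Its other probes gave 1.51 ± 0.23 and 1.03 ± 0.19, both called. Klrb1c, the NK1.1 antigen of C57BL strains, stood at 7.35, 7.52 and 7.46 against 6.23, 5.95 and 6.26, a difference of 1.29 ± 0.12 (2.45-fold). Its sequence varies between inbred strains, and how that bears on its probes was not tested. Its dimmer probe gave 1.85 ± 0.28 (adjusted P = 0.0074), with all 3 allografts and 1 of 3 controls well above background.

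**Figure D1:**
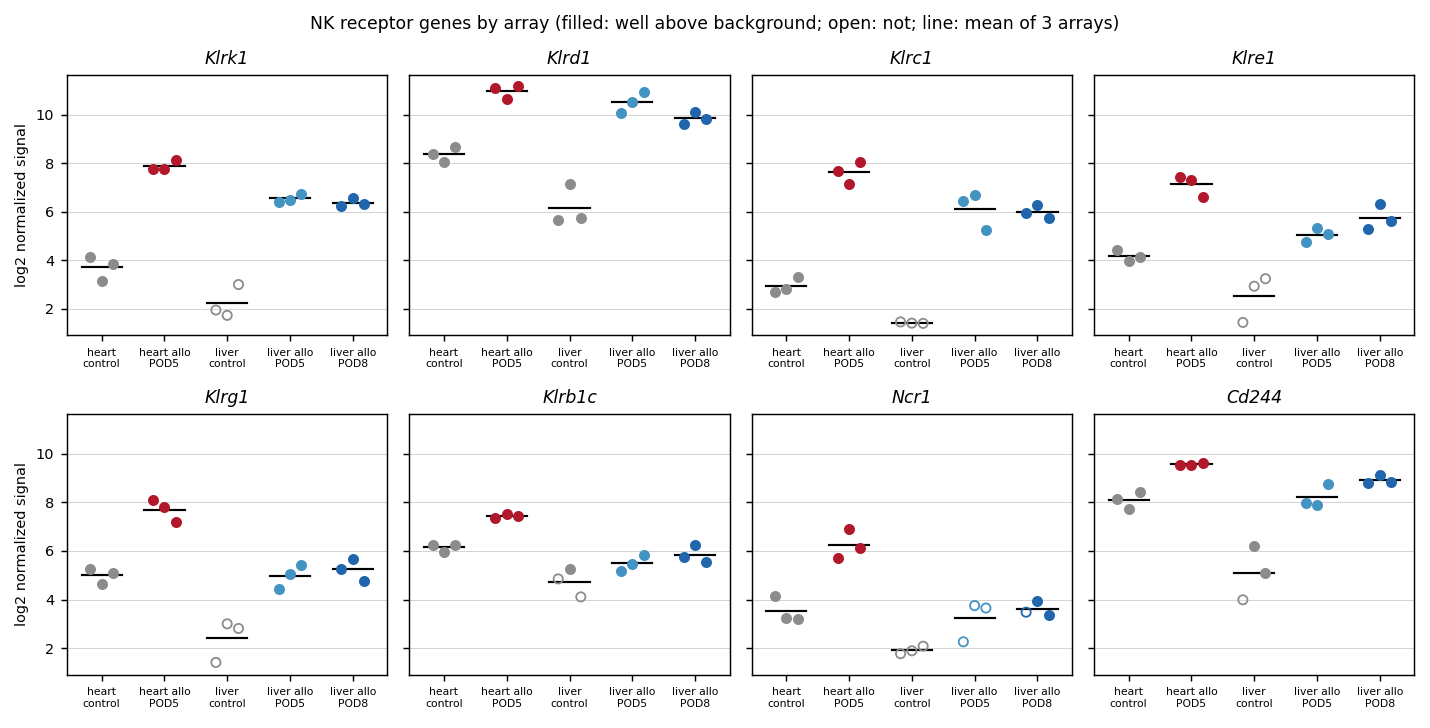
The log2 normalized signal of each of the 8 genes (vertical axis) on the 3 arrays of each group (horizontal axis), read from the brightest probe, with filled points for arrays on which the probe lay well above background, open points for the others, and a line at the mean of 3 arrays. Cardiac allografts lie above cardiac controls for all 8 genes, and hepatic controls are open points on all 3 arrays for Klrk1, Klrc1, Klre1, Klrg1 and Ncr1.

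The cardiac calls did not hang on any 1 array, since 8 of 8 were called without each array in turn. Their sizes hung on the background correction. With normexp and an offset, which shrinks dim signals, 8 of 8 were still called, but the difference was 1.91 for Klrc1, 1.71 for Klrk1, 1.19 for Klre1, 1.5 for Klrg1, 0.84 for Ncr1 and 0.88 for Klrb1c, against 2.39 for Klrd1 and 1.34 for Cd244. None was called by limma after a Bonferroni adjustment, or by the methods' standardized fold change (SFC) as rerun here with Bonferroni adjustment. The SFC count was 0 of 8 against 0.342% of all genes called higher, with 6 of 8 at an unadjusted P under 0.05. The study lists Klrk1 among the genes its own SFC found higher in hearts and in livers at both days. Its PCR assay also gave more Klrk1 RNA in allografts. Why the rerun differed in the heart was not tested. The cardiac allografts were on one slide and the controls on another, so slide and group cannot be told apart.

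Of the 8 genes, 5 lie in a run on chromosome 6 that also holds other lectin-like receptors, with Klre1, Klrd1 and Klrk1 next to each other among the coding genes of the RefSeq annotation of GRCm38.p6, and Klrc1 and Klrb1c in the same region. Klrg1 is elsewhere on chromosome 6, Ncr1 on chromosome 7 and Cd244 on chromosome 1. Because the genes rose together in the heart, their promoters were read from the RefSeq windows of that build, which run from 250 bases before a gene's start to 50 after it. Windows were found for 6 of the 8, and Klrd1 and Klrg1 had none in the table used here. The motif TGTGGT, the core bound by Runx factors, was searched on both strands and was present for 5 of the 6 genes (not for Cd244). The same motif was present for 18.9% of 27025 genes with a window. It was picked with these promoters in view, so the count is a description and not a test. A T-box core, AGGTGT, which does not overlap it, was present for 0 of the 6 genes and for 15.7% of all genes. The 60 bases around the Runx match nearest to the start are shown 5′ to 3′ on the gene's strand, with the match in capitals (ACCACA is the motif read on the other strand). Each can be set beside the values above: Klrk1 and Klrc1, with the largest cardiac differences, and Klrb1c, with the smallest, all hold it.
Klrk1, chr6:129623961-129624020, minus strand: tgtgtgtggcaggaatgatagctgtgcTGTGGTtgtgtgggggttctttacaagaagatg
Klrc1, chr6:129679028-129679087, minus strand: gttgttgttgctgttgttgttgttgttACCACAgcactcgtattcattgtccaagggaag
Klrb1c, chr6:128788698-128788757, minus strand: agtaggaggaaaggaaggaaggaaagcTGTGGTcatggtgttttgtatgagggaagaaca
Klre1, chr6:129577963-129578022, plus strand: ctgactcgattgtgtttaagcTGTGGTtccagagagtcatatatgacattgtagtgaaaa
Ncr1, chr7:4337647-4337706, plus strand: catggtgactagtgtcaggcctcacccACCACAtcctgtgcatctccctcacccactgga
The Klrk1 match begins 129 bases before the start, those of Klrc1 and Klrb1c 87 and 89 bases before it, and that of Klre1 229 bases before it. Klre1 has a second window, with its own start, that holds 0 matches. Ncr1 has 2 overlapping windows and 2 matches, the nearer of which begins 41 or 50 bases before the start, depending on the window.

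In the liver at POD5, 3 receptor genes passed the test, and they were the activating receptor Klrk1 and both chains of the CD94 and NKG2A pair. All 8 genes had a mean above the controls, with log2 differences from 0.75 for Klrb1c to 4.71 for Klrc1 and a median of 2.84. The 3 of 8 called compare with 2.5% of all genes called higher, and 7 of 8 had an unadjusted P under 0.05. Allografts lay wholly above controls for 7 of 8 genes, all but Klrb1c, and for 12.2% of all genes.

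Klrc1 stood at 6.45, 6.68 and 5.26 in the POD5 hepatic allografts and at 1.46, 1.41 and 1.4 in the controls. No control array was well above background, so the change is given as a bound of at least 3.48-fold higher (adjusted P = 0.011), with a fitted difference of 4.71 ± 0.39. Such a bound sets the allograft mean against the dimmest signal marked well above background on each control array, or the probe's own signal if higher. Marks were given spot by spot, so an unmarked probe can lie above that dimmest signal. The bound is therefore approximate and belongs to this scale only. Klrk1 stood at 6.40, 6.49 and 6.74 against 1.95, 1.73 and 3.00, none of the controls above background, and was at least 4.64-fold higher (adjusted P = 0.011). The 3 allografts were close together and the third control stood apart from the other controls. Klrd1 stood at 10.06, 10.53 and 10.92 against 5.65, 7.12 and 5.72, and it was well above background on all 6 arrays. The difference was 4.34 ± 0.48, a 20.2-fold change (adjusted P = 0.019).

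The other hepatic POD5 differences missed the threshold. Cd244 stood at 7.97, 7.91 and 8.76 against 3.99, 6.21 and 5.11, a difference of 3.11 ± 0.61 (adjusted P = 0.066). The controls were widely spread, and the lowest lay below background. Klrg1 stood at 4.44, 5.04 and 5.43 against 1.41, 3.00 and 2.81 (adjusted P = 0.068), and Klre1 at 4.76, 5.32 and 5.10 against 1.44, 2.93 and 3.24 (adjusted P = 0.069). For both, the controls lay below background on all arrays, and the bounds were at least 1.55-fold and at least 1.66-fold. Ncr1 stood at 2.26, 3.75 and 3.65 against 1.77, 1.89 and 2.08 (adjusted P = 0.19). It was not well above background on any of these 6 arrays, and no fold is given. Klrb1c stood at 5.19, 5.45 and 5.85 against 4.85, 5.27 and 4.11, with overlapping groups, and the difference was 0.75 with a 95% interval from -0.14 to 1.64 (adjusted P = 0.30).

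Over all probes, 981 were called higher at POD5, and 77, 28 or 310 when 1 POD5 allograft was left out. Without 1 control the number was 837, 381 or 551. Leaving out any 1 array, the differences ran from 4.43 to 5.14 for Klrc1, 4.07 to 4.7 for Klrk1 and 4.08 to 4.82 for Klrd1. The POD5 count of receptor genes moved with single arrays as well. It was 0 without the first and 0 without the second POD5 allograft, 1 without the third, and 2 to 4 without a control. It was 0 after Bonferroni adjustment, 0 with the methods' t-test and 3 with SFC, where 0.846% of all genes were called higher, and it went to 6 when 1 fit of all 5 groups shared the spread. In that fit 15.1% of all probes were called in either direction. The third allograft was on the slide of the cardiac allografts and the first and second on a slide of their own. No POD5 allograft shared a slide with a hepatic control, so slide and group cannot be told apart here either. A random slide block cannot separate them, and with it the count was 3. With normexp it was 3 as well, made of Klrd1 (3.36), Cd244 (1.92) and Klrk1 (0.99), while Klrc1 (1.11, adjusted P = 0.064) was not called. The normexp differences of Klrk1, Klrc1, Klre1 (0.47) and Klrg1 (0.42) are smaller than the POD5 bounds given above.

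In the liver at POD8, 7 of 8 receptor genes were higher than in the controls, all but Klrb1c, where 3.54% of all genes were called higher. The median log2 difference was 3.44, with a range from 1.09 to 4.57. The allografts lay wholly above the controls for all 8 genes, and for 11.9% of all genes. The POD5 and POD8 comparisons share the 3 control livers, so their values are given side by side and no overlap between them was taken as a result.

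Klrc1 at POD8 stood at 5.96, 6.29 and 5.73, against controls near 1.4, a fitted difference of 4.57 ± 0.17 and a bound of at least 3.16-fold (adjusted P = 0.00089). Klrk1 stood at 6.23, 6.57 and 6.32 and was at least 4.12-fold higher (adjusted P = 0.0079). Klrd1 stood at 9.61, 10.12 and 9.80, a difference of 3.68 ± 0.44 or 12.8-fold (adjusted P = 0.018). These 3 genes thus passed at both days. Cd244 stood at 8.80, 9.12 and 8.85, a difference of 3.82 ± 0.57 or 14.1-fold (adjusted P = 0.031), and its other probes gave 2.76 ± 0.23 and 1.72 ± 0.20, both called. Klre1 stood at 5.27, 6.31 and 5.62 and was at least 2.64-fold higher (adjusted P = 0.043). Klrg1 stood at 5.27, 5.69 and 4.76 and was at least 1.87-fold higher (adjusted P = 0.045).

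Ncr1 at POD8 stood at 3.48, 3.95 and 3.36, well above background on 2 of 3 allografts and on no control. The fitted difference was 1.68 ± 0.20 (adjusted P = 0.016), and since the allograft mean did not exceed the controls' background level, no fold is given. Klrb1c stood at 5.74, 6.23 and 5.53 against 4.85, 5.27 and 4.11, a difference of 1.09 with a 95% interval from 0.19 to 2.0 (adjusted P = 0.16). Its groups did not overlap, but its test did not pass. The dimmer Klrb1c probe was below background on every hepatic array.

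Over all probes, 1453 were called higher at POD8, and 289, 323 or 518 when 1 POD8 allograft was left out. Without 1 control the number was 1861, 1105 or 1539. Leaving out any 1 array, the differences ran from 4.42 to 4.7 for Klrc1, 2.65 to 3.55 for Klre1 and 2.33 to 3.13 for Klrg1. The POD8 count of receptor genes depended on single arrays as well, and on how slide was fitted. With slide as a random block it was 7. One slide held 2 POD8 allografts and 2 controls, and within it the differences ran from 0.93 for Klrb1c to 4.69 for Klrc1. None of the 8 passed there (adjusted P from 0.053 to 0.21), with 8 of 8 at an unadjusted P under 0.05 and 0 calls among all probes in either direction. The same count of 0 came from slide as a fixed block. The count was 1 without the first and 1 without the second POD8 allograft, 2 without the third, 7 without the first control, and 4 without the second or the third. It was 1 after Bonferroni adjustment, 2 with the methods' t-test, 4 with normexp (Klrd1 2.77, Cd244 2.45, Klrc1 1.06 and Klrk1 0.95) and 4 with SFC, where 0.87% of all genes were called higher.

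**Figure D2:**
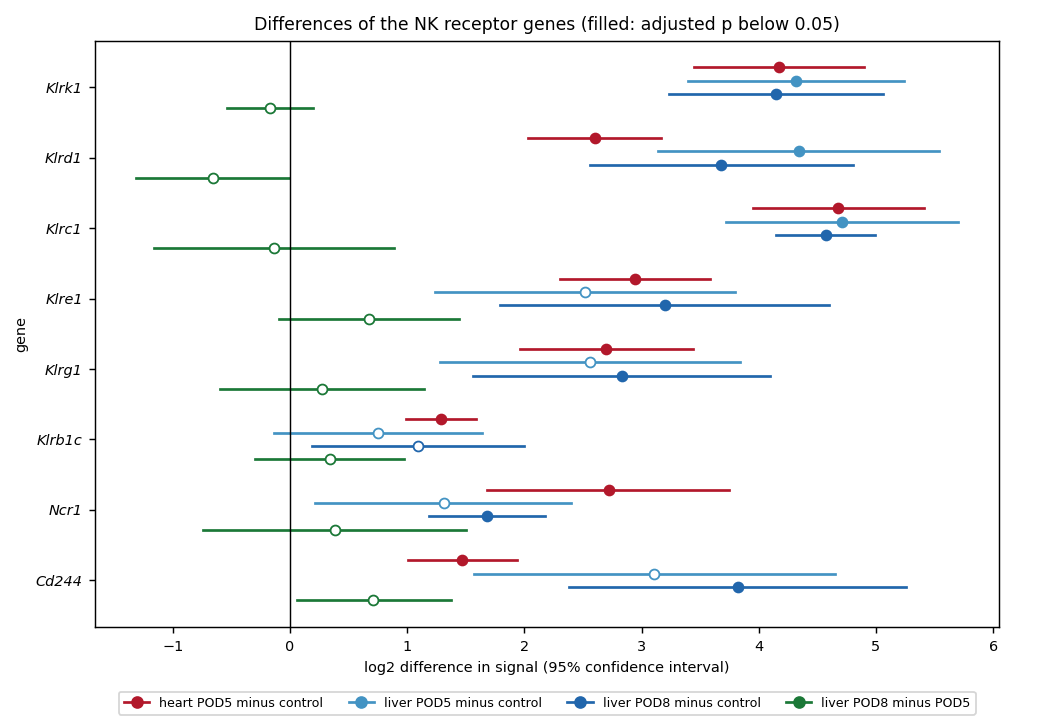
Log2 differences in signal (horizontal axis) with 95% confidence intervals for each of the 8 genes (vertical axis) in 4 comparisons, shown by colour, with filled points for an adjusted P below 0.05 in limma. Filled points number 8 for the heart, 3 for POD5 livers and 7 for POD8 livers, and the differences between POD8 and POD5 lie between -0.66 and 0.71 with none filled.

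Between POD5 and POD8 no receptor gene passed the test in the liver. The POD8 minus POD5 differences ran from -0.66 for Klrd1 (95% interval -1.31 to -0.01, adjusted P = 0.39) to 0.71 for Cd244 (0.06 to 1.37, adjusted P = 0.36). These 2 genes had an unadjusted P under 0.05, and 0% of all genes were called in either direction. Klrk1, the most tightly measured, differed by -0.17 (-0.54 to 0.20). Klrc1 differed by -0.14, with an interval from -1.16 to 0.89 that leaves room for a change of about 1 unit either way. All 3 POD8 allografts lay above all 3 POD5 allografts for 1 of 8 genes, Cd244, and for 8.83% of all genes, which is near the same share. The dimmer Cd244 probes gave 1.11 (adjusted P = 0.27) and 1.39 (adjusted P = 0.24).

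Whether a receptor gene changed more in the heart than in the liver at POD5 was tested by an interaction over 12 arrays, cardiac difference minus hepatic difference. None of the 8 passed, with 3 at an unadjusted P under 0.05, where 6.76% of all genes were called higher and 7.07% lower. Klrd1 had a cardiac difference of 2.60 and a hepatic one of 4.34, and the interaction was -1.74 ± 0.55 (95% interval -2.98 to -0.50, adjusted P = 0.066). It passed in 1 fit of all 5 groups (adjusted P = 0.038). Cd244 gave -1.63 (-3.13 to -0.14, adjusted P = 0.13), but its other probes gave -0.14 and 0.70. Klrb1c, above background on 1 hepatic control, gave 0.54 (-0.34 to 1.41, adjusted P = 0.38), while its other probe passed at 1.61 (adjusted P = 0.024) but was below background on all hepatic arrays.

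For the other 5 genes the interaction rests on hepatic controls below background, so its hepatic part has no measured size. The fitted values were -0.02 for Klrc1, -0.14 for Klrk1, 0.42 for Klre1, 0.14 for Klrg1 and 1.41 for Ncr1, whose POD5 livers were below background too, and none of these says that a gene changed alike in both organs. With normexp, Klrc1 turned positive (0.80, adjusted P = 0.12), and Klrk1 gave 0.72 and passed (adjusted P = 0.0070), as did Klre1 (0.73) and Klrg1 (1.08). With arrays scaled to their 75th percentile, Klrc1 and Klrk1 also turned positive, at 1.36 and 0.72. That scaling moved the median of all probes in the interaction from 0.08 to 0.64, and 4 receptor genes were then called, Ncr1 and Klre1 higher and Klrd1 and Cd244 lower.

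The order of levels across the 5 groups had the cardiac allografts on top and the hepatic controls at the bottom for all 8 genes, in 1 limma fit over all arrays. The cardiac allografts exceeded the group next to them for 6 of 8 genes, in a fit where 28.6% of all probes differed between cardiac allografts and cardiac controls, 34% between cardiac and POD5 hepatic allografts and 34.3% between cardiac and POD8 hepatic allografts, while Cd244 (0.65 above POD8 livers, adjusted P = 0.29) and Klrd1 (0.46 above POD5 livers, adjusted P = 0.40) did not pass. No receptor gene passed between POD5 and POD8 livers, where 0.0293% of all probes did, and this does not show that their levels were alike. Klrc1, Klrk1 and Klrd1 were higher in the hepatic allografts than in the cardiac controls, with POD8 livers above the cardiac controls by 3.06, 2.66 and 1.48. Between cardiac controls and hepatic allografts, 44.4% (POD5) and 42.9% (POD8) of all probes differed in either direction, near the share of receptor genes that passed. For Cd244, Klre1, Klrg1, Klrb1c and Ncr1, the cardiac controls did not pass against the hepatic allograft group beside them in the order, though POD8 livers, one place further up, exceeded the cardiac controls by 1.56 for Klre1 (adjusted P = 0.0097).

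The controls themselves differed between organs. Cardiac controls exceeded hepatic controls for all 8 receptor genes, by 1.41 for Klrb1c to 3.00 for Cd244 (adjusted P from 8.6e-05 to 0.0057), where 54% of all probes differed between these groups. Well above background were 8 of 8 genes on each cardiac control and 1 to 3 of 8 on a hepatic control. The cardiac controls were also brighter as whole arrays, with 75th percentiles of 1025 to 1251 against 92.1 to 226.2. Of all probes, 68.8 to 70.5% lay well above background on them, against 52.5 to 57.0% on hepatic controls. These 2 groups shared no slide, and the part of brightness and slide in the organ difference was not tested. Klrd1 was measured on all 3 hepatic controls, Cd244 on 2 and Klrb1c on 1, and the other 5 genes on none.

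Across the 15 arrays the 8 genes ran in parallel to different degrees, with Pearson correlations from 0.66, for Klrb1c with Klrc1 and with Klrk1, to 0.97 for Klrc1 with Klrk1. Klrb1c was nearer to Ncr1 (0.92) and Klrg1 (0.91). These values describe 15 arrays that fall into 5 groups and share organ and slide, so they mostly restate the differences between groups. Among 15253 genes, the one most like Klrc1 was its neighbour and paralog Klrc3 (0.999), and with so close a copy the probes may read the same transcripts. The next were Rasal3 (0.986) and the cytotoxic granule protein Prf1 (0.978). Most like Klrk1 were Gzmb (0.988), a granule protease, and the class II antigen presentation genes H2-DMb1 (0.987) and H2-Ab1 (0.984). Most like Klrd1 were Sh2d1a (0.989), Cd247 (0.989) and Ipcef1 (0.988). Klrg1 was most like Tcstv3 (0.982), Aif1 (0.975) and Fcgr4 (0.974), and Klre1 like Ifi30 (0.973), Spint1 (0.97) and Cxcl10 (0.97). Ncr1 was most like Stx6 (0.958), Slc16a3 (0.958) and the receptor Klri2 (0.956), Klrb1c like Aoah (0.977), Tnip1 (0.966) and Plgrkt (0.966), and Cd244 like Trerf1 (0.974), Vdr (0.973) and Padi2 (0.971).

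The receptors' ligands were read beside them, in a list that also held Clec2d, Clec2g, Clec2h and Clec2i of the NKR-P1 ligand family. Whether these bind Klrb1c was not tested. Of 11 measured genes of this list, 2 were higher and 1 lower in the heart, 1 was higher in POD5 livers, and 2 were higher and 1 lower in POD8 livers, with medians of 0.49, 0.53 and 0.33. All genes had 15.5%, 2.5% and 3.54% called higher, 15.2%, 0.812% and 1.55% called lower, and medians of 0.03, -0.08 and -0.11. H2-T23 encodes Qa-1, the ligand of the CD94 and NKG2A pair, and was higher in all 3 comparisons, by 3.18 ± 0.20 (9.06-fold) in the heart, 1.31 ± 0.19 (2.49-fold) in POD5 livers and 1.01 ± 0.18 (2.02-fold) in POD8 livers. Its interaction of 1.87 ± 0.29 passed (adjusted P = 0.0049), with all 5 groups well above background. Cd48, the ligand of Cd244, gave 0.69 (adjusted P = 0.056), 2.82 (adjusted P = 0.060) and 2.81 (adjusted P = 0.050), and none of these was below the threshold. Its interaction of -2.12 ± 0.60 was called (adjusted P = 0.043). Clec2h, a lectin-like relative of the NKR-P1 ligands, was called in none of the 3 comparisons, and it was below background on all cardiac arrays, so that its called interaction is not read here.

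Raet1e was the only Rae-1 or H60 gene with a named probe, and it stood for the Klrk1 ligands. It gave -1.0 ± 0.33 (adjusted P = 0.076) in the heart and 0.41 (adjusted P = 0.58) in the liver at POD5, and rose by 2.68 ± 0.45 (6.41-fold, adjusted P = 0.041) at POD8. Ulbp1 and the other genes of these families were not analysed here. Among the cadherins that Klrg1 binds, Cdh2 fell by 1.56 in the heart (adjusted P = 0.027) and fell by 1.61 in the liver at POD8 (adjusted P = 0.041). Cdh1 was called in none of them, with -0.43, 1.15 and 0.31, and nor was Clec2d, a ligand of the NKR-P1 family to which Klrb1c belongs, with -0.17, -0.60 and 0.31.

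Among 19 adaptor and signalling genes, 11 were higher in the heart, 8 in POD5 livers and 12 in POD8 livers, and none was lower. Hcst (DAP10), the adaptor through which Klrk1 signals, gave 0.97 ± 0.33 in the heart (adjusted P = 0.081) and rose by 1.88 ± 0.23 and 1.73 ± 0.17 in the liver (adjusted P = 0.024 and 0.011). Tyrobp (DAP12), the other Klrk1 adaptor, was not called, with 0.23, 1.65 and 2.24. Among the adaptors of Cd244, Sh2d1a (SAP) rose by 3.83 in the heart and was at least 9.03-fold and at least 5.41-fold higher in POD5 and POD8 livers, while Sh2d1b1 (EAT-2) gave 0.55 in the heart (adjusted P = 0.19) and was at least 1.21-fold and at least 1.34-fold higher in the livers. Both were below background on all hepatic controls. The largest called rise in this list was that of Lat in the heart, 4.83, and Cd247 was at least 23.6-fold and at least 16.1-fold higher in the livers, its controls being below background. Both serve T cell receptor signalling as well. The brightest Zap70 probe rose by 4.74 in the heart and gave -0.10 and 0.03 in the liver, an interaction of 4.84 (adjusted P = 5.1e-05). That probe stood at 10.04 in hepatic controls and 5.31 in cardiac controls, and what it reads in liver was not tested. Of the 19 interactions in this list, 2 were called higher and 3 lower, where 6.76% and 7.07% of all genes were.

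Other receptor families of these cells were measured beside them. Of 11 Ly49 genes with a named probe, 10 were higher in the heart, 1 in POD5 livers and 2 in POD8 livers, with medians of 1.53, 2.15 and 2.10. Klra2 rose most in the heart (3.32). Klra6 was called in the livers at both days, with controls below background and a bound of at least 1.14-fold at POD5 and none at POD8. The Ly49 genes are near-identical copies whose number varies between mouse strains, so single members are uncertain here. Of 14 further receptors, 13 were higher in the heart, 5 in POD5 livers and 7 in POD8 livers. Klrc3 rose most in the heart (4.67). Cd96, a receptor for nectin-like proteins, had the largest fitted differences in the livers, but its controls were below background and its bounds were at least 5.53-fold and at least 7.28-fold, less than those of Slamf7 (at least 10.1-fold and at least 19.3-fold). The interaction of Cd226, an activating receptor that shares a ligand with Cd96, was called at 1.05 with all 5 groups above background. Of these 14 interactions, 1 was called higher and 1 lower, where 6.76% and 7.07% of all genes were. Among the Ly49 genes 0 were called higher and 1 lower, that of Klra6 (-1.35, adjusted P = 0.039), whose hepatic controls were below background.

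Genes of other cells moved with the receptors. All 12 measured T cell genes were higher in the heart and 10 of 12 in the liver at each day. The mean over these 12 genes was 9.69 to 10.27 on cardiac allografts against 6.10 to 6.45 on controls, and 9.24 to 9.84 at POD5 and 8.88 to 9.24 at POD8 against 5.54 to 6.10 on hepatic controls. Cd8a rose by 6.02 in the heart, was at least 104-fold higher in POD5 livers, and was called higher in POD8 livers as well, with no hepatic control above background. Cd3d rose by 4.68, 5.20 and 4.51. Interactions were called in both directions, up to 2.78 for Cd6 and down to -2.07 for Thy1. The brightest Cd3e probe rose by 2.70 in the heart and gave 0.74 (adjusted P = 0.23) and 0.71 (adjusted P = 0.093) in the liver. All 12 were above background on each allograft and cardiac control, and 8 to 10 of them on a hepatic control. The part of T cells in the receptor differences was not tested.

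Of 19 genes of natural killer cell identity and function, 13 were higher in the heart, 9 in POD5 livers and 11 in POD8 livers, and none was lower. Gzmb, shared with cytotoxic T cells, rose by 7.81, 7.12 and 6.76. Id2, a transcriptional regulator that natural killer cells need, was the only called interaction of this list, at 1.44 (adjusted P = 0.021). Its means were 12.22 in cardiac allografts and 11.23 in cardiac controls, against 12.62 in POD5 livers and 13.07 in hepatic controls, its highest group. Eomes, a transcription factor of natural killer cells and some CD8 T cells, was at least 8.28-fold higher in the heart, was not called in POD5 livers (adjusted P = 0.062) and was called higher in POD8 livers (adjusted P = 0.032), with hepatic controls below background and no bound at POD8. Itga2, the integrin known as DX5 or CD49b, was called in none and was below background on all hepatic arrays. In the heart it was well above background on 2 of 3 controls and 0 of 3 allografts, with means of 2.67 and 2.01. Of 5 B cell genes, 0 were called in any of the 3 comparisons. Of 5 macrophage genes, 3 were lower in the heart, led by Cd163 (-4.47), and 0 were called in the liver. Of all genes, 15.2% were called lower in the heart, 0.812% in POD5 livers and 1.55% in POD8 livers. Mean levels in cardiac controls and allografts were 11.86 and 8.63 for Mrc1, 13.82 and 13.49 for Adgre1, and 12.09 and 12.65 for Csf1r. Clec4f was well above background on 1 of 3 cardiac controls and on 0 of 3 cardiac allografts. Among 3 pan-leukocyte genes, Coro1a rose by 2.09, 3.37 and 2.62, and Ptprc (CD45) gave 1.34 in the heart (adjusted P = 0.093) and rose by 2.99 and 2.70 in the liver.

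**Figure D3:**
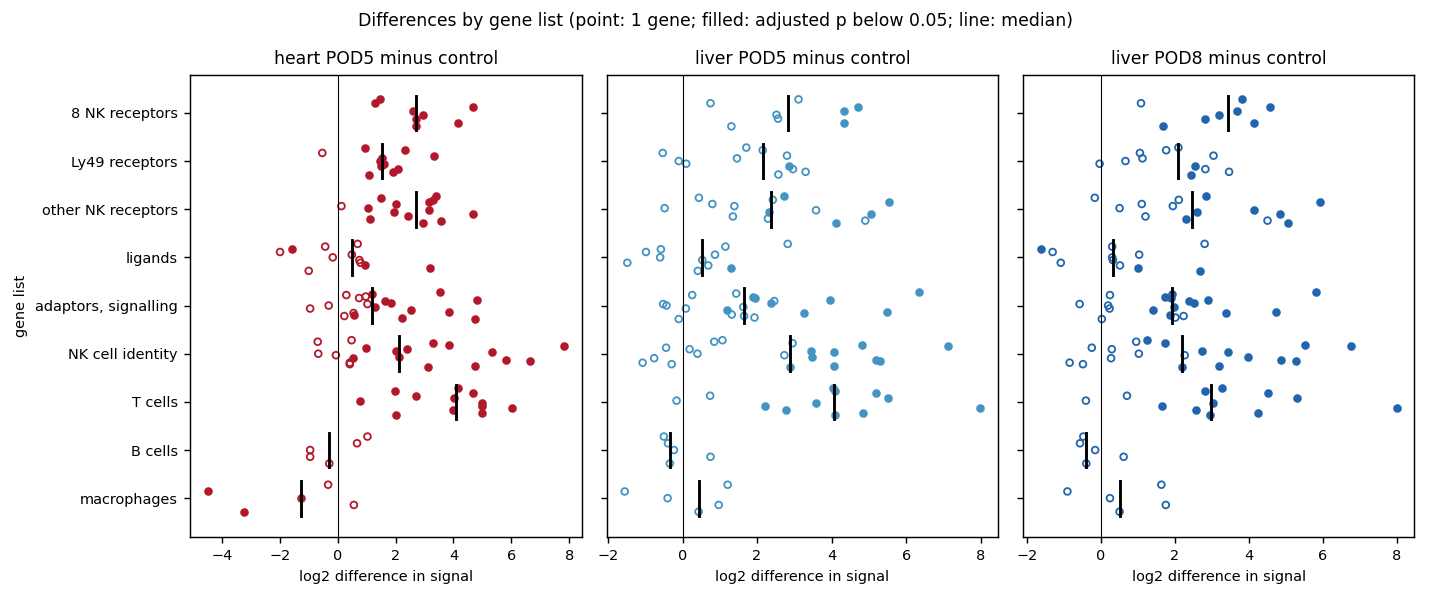
Log2 differences in signal (horizontal axis) for the 8 receptor genes and 8 further gene lists (vertical axis) in hearts and in POD5 and POD8 livers, with 1 point a gene, filled for an adjusted P below 0.05, and a line at the list's median. The receptor medians are 2.71, 2.84 and 3.44, those of T cell genes 4.10, 4.06 and 3.00, and those of ligands 0.49, 0.53 and 0.33.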

How the data were processed

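The authors deposited, for each spot, processed, median and median background intensities from the scanner software, not normalized between arrays. Spots with an outlier mark (47 to 113 per array, with 0 saturated) were left out. Spots of a probe were averaged as log2 processed intensity, and arrays were quantile normalized together. Depth is signal over background, with 52.5 to 70.5% of probes well above it per array, and 3 arrays per group limit the precision. Files were read with data.table, version 1.17.8, in R 4.3.3. Limma 3.58.1 was fitted to the arrays of each comparison, with Benjamini-Hochberg adjustment over all probes and calls under 0.05. A probe lay well above background when at least 0.5 of its spots were marked so. Of 41174 probes, 26690 (64.8%) were named through RefSeq accessions (GRCm38.p6, names only). Of 149 list genes, 128 had a probe. Named genes, where they touch a receptor result, were the receptors, their direct ligands and adaptors, Cd3e, Cd8a, Eomes, each list's largest called rise and fall, and the 3 most correlated genes; Cd3d, Itga2, Ptprc and Slamf7 were added after their values were seen. The receptors and lists were chosen with earlier results of these data known. SFC used bins of 1000. Steps were tested on simulated data. Python 3.11.15 with pandas 2.3.3 and matplotlib 3.10.9 drew the figures.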

Additional observations from a re-analysis of the deposited data

Results flagged for a closer look

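The dimmer Klrb1c probe differed between organs. Its allograft difference was 1.85 in the heart and 0.24 in the liver at POD5, and the interaction, cardiac minus hepatic, was 1.61 ± 0.38 (adjusted P = 0.024). It stood at 4.27, 5.0 and 4.19 in cardiac allografts against 2.76, 2.31 and 2.86 in cardiac controls, and it was not well above background on any hepatic array. The brighter Klrb1c probe gave 0.54 (adjusted P = 0.38).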

How the results depend on the processing

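Counts are of the 8 receptor genes called by limma. With a replicate block, the count stayed at 8 in the heart and at 0 for POD8 against POD5 and for the interaction. It was 0 at POD5 and 0 at POD8 in the liver, where that block also left 0 of all probes called. Same-numbered arrays did not deviate together (correlations from -0.12 to 0.16), so the numbers were not taken as pairs. In the heart the count was 0 with Bonferroni and 0 with SFC, and 8 to 8 leaving out each array. In the liver at POD5 it was 5 with quantile normalization within the comparison, 6 with 75th percentile scaling, 6 of 7 with dim probes left out, 6 in 1 fit of 5 groups, 0 with Bonferroni, 0 with the methods' t-test (6 before adjustment), and 0 to 4 leaving out each array. At POD8 it was 1 with Bonferroni, 4 with normexp, 0 with slide as a fixed block, 0 within the shared slide (chosen after seeing the data), 4 with SFC, 2 with the methods' t-test, and 1 to 7 leaving out each array. For the interaction it was 4 with 75th percentile scaling, 3 with normexp, 1 with dim probes left out, 1 in 1 fit of 5 groups, and 0 to 2 leaving out each array, the 2 being without the second hepatic control. For POD8 against POD5 it was 0 under every alternative.

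No cardiac or hepatic difference against controls changed sign under any alternative run. Leaving out single arrays, the POD8 minus POD5 difference ran from -0.57 to 0.14 for Klrc1 and from -0.11 to 0.64 for Ncr1 (-0.17 with SFC), and the interaction from -0.46 to 0.25 for Klrc1, -0.53 to 0.10 for Klrk1 and -0.16 to 0.64 for Klrg1. The interaction also turned positive with 75th percentile scaling (Klrc1 1.36, Klrk1 0.72), normexp (0.80 and 0.72) and slide as a random block (Klrc1 0.27). The cause was not tested.

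The 75th percentile scaling moved the median of all probes from 0.02 to 0.47 for hearts, for POD5 livers from -0.07 to -0.38, and for POD8 livers from -0.08 to -0.46. Calls over all probes went from 6394 higher and 6722 lower to 15727 and 5469 in the heart, from 1453 and 593 to 2368 and 10507 at POD8, and from 2628 and 2977 to 12830 and 2766 in the interaction. Normexp was run on median signals, and slide as a random block could not be fitted in the heart. Low signal over background limits the hepatic controls most, where 5 of the 8 genes had no measured level.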
